A study of Arabidopsis thaliana with 12 samples.

Results

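The LHC-like genes of *Arabidopsis thaliana* encode thylakoid proteins that share a membrane helix with the light-harvesting complex (LHC) proteins. The 8 genes described here were chosen by name and grouped by the number of membrane helices of their proteins. They were the 3-helix *ELIP1* and *ELIP2*, the 2-helix *SEP1*, *SEP2*, *LIL3:1* and *LIL3:2*, and the 1-helix *OHP1* and *OHP2*. They are 8 of the 40215 gene models of the series, and all 8 passed the filter on low values, as did 18373 gene models in all. The rise of *ELIP1* and *ELIP2* in white and marbled seedlings was known when the genes were chosen, so their values are given as a description with no test. The other 6 were tested.

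RNA was sequenced after rRNA depletion in 12 libraries, 3 from each of 4 groups. Col-0 is the wild type. The *gun1-102* line has a T-DNA insertion in *GUN1* in the Col-0 ecotype, and its seedlings were sorted by the colour of their cotyledons into white (*gun1W*), marbled (*gun1M*) and green (*gun1G*) groups, which therefore share 1 genotype and 1 insertion line. All groups were 4 days old and had grown at 22 °C under 16 h light and 8 h dark, at 100 µmol photons per square metre and second, on half-strength MS medium with 1% sucrose and no inhibitor. By the sample labels the RNA came from cotyledons, whereas the paper speaks of RNA of seedlings. No source states that the 3 libraries of a group came from separate sowings, so p-values measure only the spread between these libraries.

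In plants, LHC-like proteins bind little or no chlorophyll for light harvesting and are known mainly for photoprotection and for handling chlorophyll while photosystems are built or taken apart. ELIPs (early light-induced proteins) accumulate for a short time during greening and in excess light, and are thought to hold free chlorophyll. The SEPs (stress-enhanced proteins) were named for transcripts that rise in strong light, OHP1 and OHP2 form a pigment-binding pair that takes part in photosystem II assembly, and LIL3 proteins bind enzymes of chlorophyll synthesis such as geranylgeranyl reductase.

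Each gene lies at a locus of its own in the TAIR10.1 assembly. *ELIP1* (AT3G22840) lies on chromosome 3 at 8084405 to 8085669, on the minus strand. *ELIP2* (AT4G14690) lies on chromosome 4 at 8418242 to 8419325, on the plus strand. *OHP1* (AT5G02120) lies on chromosome 5 at 419091 to 419773, on the plus strand, and *OHP2* (AT1G34000) on chromosome 1 at 12357910 to 12358966, on the minus strand. The 2-helix genes are *SEP1* (AT4G34190) on chromosome 4 at 16372333 to 16373736, *SEP2* (AT2G21970) on chromosome 2 at 9356983 to 9357967, *LIL3:1* (AT4G17600) on chromosome 4 at 9803624 to 9805410, and *LIL3:2* (AT5G47110) on chromosome 5 at 19133986 to 19135414. The coding sequences of *ELIP1* and *ELIP2* were identical at 78.9% of 564 aligned bases and shared no run of 31 bases, while those of *LIL3:1* and *LIL3:2* were identical at 81.1% of 758 aligned bases and shared 18 runs of that length. Reads within those shared runs can be divided between the *LIL3* genes only by estimate.

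The 250 bases before the annotated start are shown for both *ELIP* genes, whose transcripts differed together between the groups, and for both *OHP* genes, whose proteins work as a pair and of whose transcripts *OHP2* was lower in *gun1W* and *OHP1* higher in *gun1M*. They were read from TAIR10.1 and are written 5′ to 3′ on the strand of the gene, with the base next to the start last. Capitals mark matches to CACGTG, the G-box that HY5 and related light-signalling factors can bind, and to GAANNTTC, a pair of heat shock element units.
ELIP1 (chr3:8085670-8085919, minus strand): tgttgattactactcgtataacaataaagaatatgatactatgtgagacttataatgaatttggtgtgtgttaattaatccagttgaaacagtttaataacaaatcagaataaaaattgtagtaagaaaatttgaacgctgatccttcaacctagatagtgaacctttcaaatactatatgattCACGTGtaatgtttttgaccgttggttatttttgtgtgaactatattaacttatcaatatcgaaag
ELIP2 (chr4:8417992-8418241, plus strand): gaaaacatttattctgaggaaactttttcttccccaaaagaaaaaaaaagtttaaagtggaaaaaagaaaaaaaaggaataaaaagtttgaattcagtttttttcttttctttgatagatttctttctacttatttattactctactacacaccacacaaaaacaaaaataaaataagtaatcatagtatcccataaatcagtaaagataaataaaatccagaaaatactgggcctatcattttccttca
OHP1 (chr5:418841-419090, plus strand): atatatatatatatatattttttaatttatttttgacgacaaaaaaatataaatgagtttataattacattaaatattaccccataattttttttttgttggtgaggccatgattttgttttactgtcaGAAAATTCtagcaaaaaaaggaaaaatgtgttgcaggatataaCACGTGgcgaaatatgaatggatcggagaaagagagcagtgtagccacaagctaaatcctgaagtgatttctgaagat
OHP2 (chr1:12358967-12359216, minus strand): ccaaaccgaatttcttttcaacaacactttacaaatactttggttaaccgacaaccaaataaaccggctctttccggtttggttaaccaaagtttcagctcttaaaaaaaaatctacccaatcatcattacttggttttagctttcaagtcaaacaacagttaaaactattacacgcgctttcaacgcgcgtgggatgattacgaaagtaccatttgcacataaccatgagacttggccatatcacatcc
Searched on both strands, the G-box was found in *ELIP1*, beginning at −66 from the start, and in *OHP1*, beginning at −78. The same window of the other 6 genes held no CACGTG. It was present in 6.49% of 27443 promoters of the same length. GAANNTTC was found only in *OHP1*, beginning at −121, and in 9.55% of all promoters. GATAAG, the I-box of light-regulated promoters, was found only in *ELIP1*, on the opposite strand at −17, and in 12.3% of all promoters. The ACGT core, which lies inside the G-box, was present in *ELIP1*, *SEP1*, *SEP2*, *LIL3:2* and *OHP1* and in 44.1% of all promoters. These matches describe letters only. Of these motifs *ELIP2* held none, whereas *SEP1* and *SEP2* both held the ACGT core alone.

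Levels are given as scaled TPM. The authors deposited TPM (transcripts per 1000000, which already allows for transcript length), and each library was multiplied by 1 factor so that its median nuclear gene was at the level of the others. The factor ranged from 0.538 to 0.691 in *gun1W*, from 0.908 to 1.16 in *gun1M*, from 1.16 to 1.27 in *gun1G* and from 1.21 to 1.34 in Col-0. Plastid transcripts held 9.29 to 12.5% of TPM in *gun1W*, against 34.5 to 37.8% in Col-0, 27.7 to 34.6% in *gun1M* and 38.4 to 41.5% in *gun1G*. Without scaling, the median of all tested gene models was higher by 0.82 on the log2 scale in *gun1W* than in Col-0, and by 0.19 in *gun1M*, so every change below is relative to that median. Read counts cannot be had from TPM, so the depth behind each value is unknown. Transcripts of *GUN1* itself stood at 44.0 to 46.4 scaled TPM in Col-0 and 20.4 to 39.3 in the 9 *gun1* libraries, a sum that includes the part before the insertion. Of markers that check the tissue label, all 4 of mesophyll passed the filter, with a summed level of 24299 to 26836 for Col-0, 15567 to 18467 for *gun1W*, 24284 to 34836 for *gun1M* and 30231 to 37728 for *gun1G*. *RBCS1A* made up most of these sums, at a mean of 21677 for Col-0 and 25203 for *gun1M*. Against Col-0, 1 of the 4 was called higher and 1 lower in *gun1M*, and 0 higher and 2 lower in *gun1W*. Among the 8 root markers 7 passed the filter, with summed levels of 336 to 522 for Col-0, 191 to 466 for *gun1W*, 121 to 196 for *gun1M* and 134 to 224 for *gun1G*, so root transcripts were present in every group. *PRP3* made up most of the root sums, at a mean of 357 for Col-0, 234 for *gun1W*, 101 for *gun1M* and 120 for *gun1G*. Of the 7, 0 were called higher and 2 lower in *gun1M* against Col-0, with a median log2 difference of −0.12. In *gun1W* 1 was called higher and 0 lower, with a median of 0.16. *PRP3* did not pass there (−0.76, limma adjusted p = 0.232). The 1 called higher, *WOX5*, came through the filter only by *gun1W* and *gun1M*, so its call is a description. In *gun1G* 0 were called higher and 1 lower, with a median of −0.34. All 4 stomatal markers passed the filter, with sums of 17.3 to 32.4 for Col-0, 5.52 to 12.9 for *gun1W*, 6.57 to 16.8 for *gun1M* and 10.8 to 20.0 for *gun1G*. So did 2 of 4 shoot meristem markers (2.19 to 6.54 over all libraries) and 3 of 4 seed markers (1.81 to 23.1), and *WUS* and *CLV3* were listed at 0 in Col-0 and *gun1G*. In bulk RNA, fewer cells of a type and less RNA per cell cannot be told apart, and the part of these cell types in the results below was not tested. The noncoding AT3G06365 took 0.219 to 19.5% of TPM, with a wide spread inside *gun1W* (19.5, 15.1 and 4.02% in libraries 1 to 3) and *gun1M* (1.16, 0.745 and 10.5%).

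The *ELIP* transcripts, under 1 scaled TPM in every Col-0 library, were among the most abundant of the 8 in *gun1W*. *ELIP1* stood at 0.672, 0.917 and 0.198 scaled TPM in Col-0 libraries 1 to 3, and at 28.2, 70.9 and 77.1 in *gun1W*. It stood at 7.18, 29.5 and 29.6 in *gun1M* and at 0.999, 1.33 and 2.45 in *gun1G*. All *gun1W* and *gun1M* libraries were thus above all Col-0 and *gun1G* libraries, *gun1W* and *gun1M* overlapped, and *gun1G* lay just above Col-0 without overlap. *ELIP2* stood at 0.256, 0 and 0.165 scaled TPM in Col-0, and at 40.0, 116 and 123 in *gun1W*. It stood at 13.2, 48.3 and 47.7 in *gun1M* and at 3.58, 2.99 and 2.81 in *gun1G*. Its groups fell in the same order, and again only *gun1W* and *gun1M* overlapped. In both genes the library numbered 1 was the lowest of *gun1W* and of *gun1M*.

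On the log2 scale of scaled TPM + 1, *ELIP1* was higher than in Col-0 by 5.13 ± 0.50 (SE) in *gun1W*, by 3.65 ± 0.50 in *gun1M* and by 0.69 ± 0.50 in *gun1G*. For *ELIP2* these differences were 6.21 ± 0.48, 4.84 ± 0.48 and 1.86 ± 0.48. The added 1 lowers differences against a group near 0. With 0.1 added, those of *gun1W* were 6.45 for *ELIP1* and 8.62 for *ELIP2*, those of *gun1M* 4.91 and 7.21, and those of *gun1G* 1.37 and 3.92. With 5 added, *gun1W* gave 3.404 and 4.11, *gun1M* 2.13 and 2.85, and *gun1G* 0.23 and 0.66. Between *gun1W* and *gun1G*, which share a genotype, *ELIP1* differed by 4.44 and *ELIP2* by 4.36, and *gun1M* lay above *gun1G* by 2.96 and 2.98. *gun1W* exceeded *gun1M* by 1.47 for *ELIP1* and 1.38 for *ELIP2*. The 2 genes kept nearly 1 proportion where both were high. The ratio of *ELIP1* to *ELIP2* was 0.704, 0.609 and 0.628 in *gun1W* and 0.546, 0.610 and 0.621 in *gun1M*, but 0.279, 0.447 and 0.874 in *gun1G*, where both were low. In Col-0 it was 2.63 and 1.198 in libraries 1 and 3, and was undefined in library 2, where *ELIP2* was listed at 0.

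**Figure D1:**
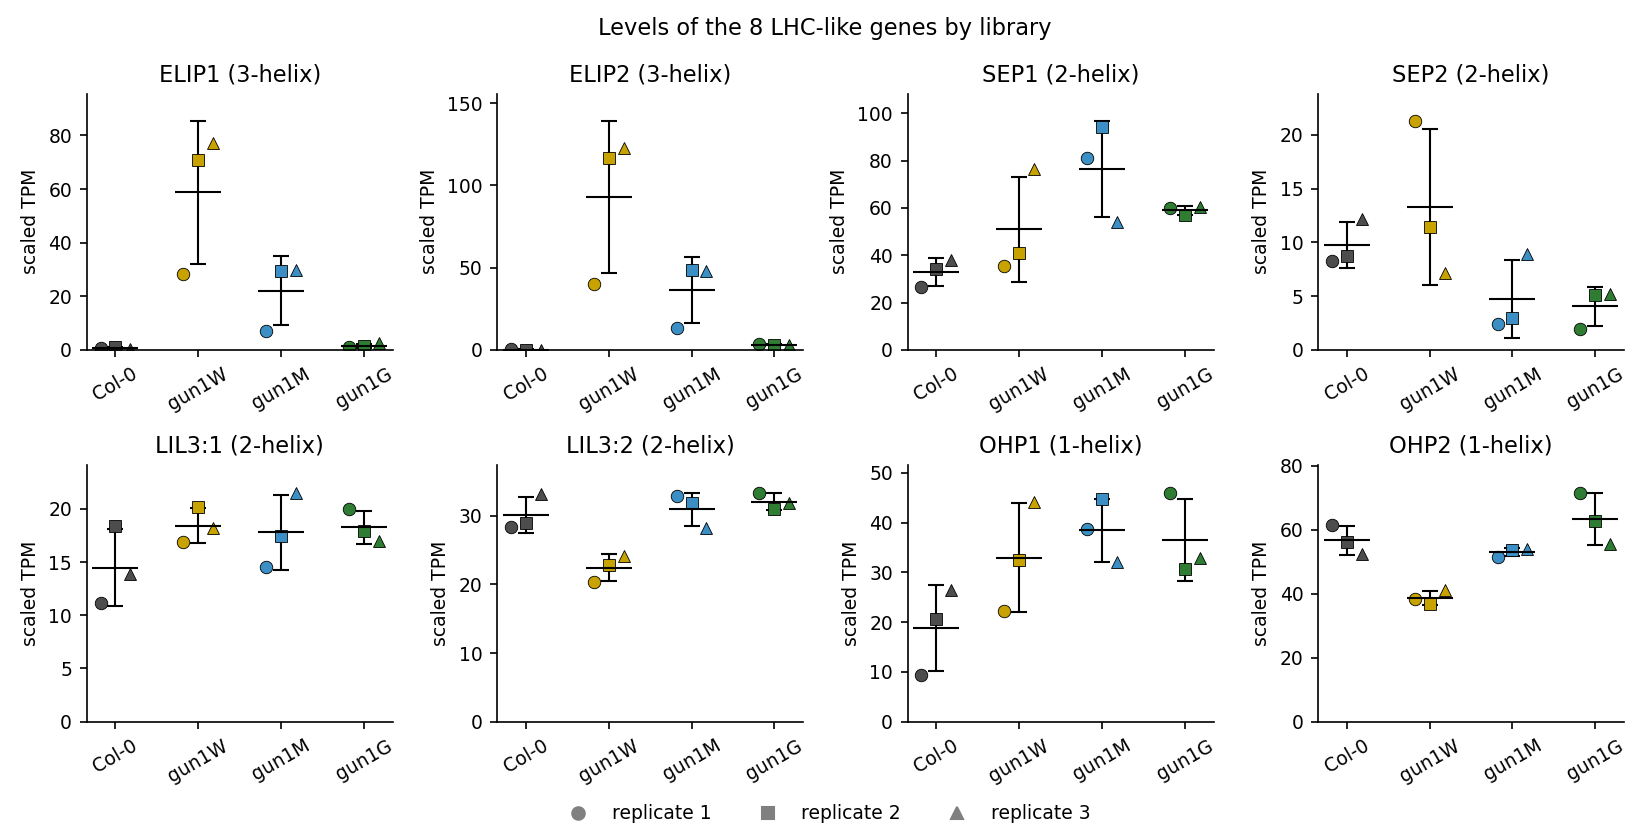
Levels of the 8 genes in scaled TPM (vertical axes, which differ between panels and start at 0) in the 4 groups; points are libraries with the replicate as the symbol, long dashes are means and bars 1 SD of 3 libraries. *ELIP1* reached 28.2 to 77.1 in *gun1W* and stayed under 1 in Col-0, while the 3 *gun1W* libraries of *LIL3:2* and *OHP2* lay below all others.

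Among the 6 tested genes, *gun1W* differed from Col-0 in 2, both lower. They were *OHP2* and *LIL3:2*, and 27.7% of all tested gene models passed the same test (limma, adjusted p under 0.05, over all 18373). At an unadjusted p under 0.05 there were 3 of 6, with *OHP1* as the third, against 7324 of the 18373 gene models. *OHP2*, which binds pigment together with OHP1, stood at 61.4, 56.1 and 52.5 scaled TPM in Col-0 and 38.5, 36.7 and 41.1 in *gun1W*. In *gun1M* it stood at 51.5, 53.7 and 53.9, and in *gun1G* at 71.6, 62.8 and 55.5. The *gun1W* libraries lay below all 9 others, *gun1M* overlapped Col-0 but not *gun1G*, and *gun1G* overlapped Col-0. *OHP2* fell by 0.54 ± 0.13 on the log2 scale in *gun1W* (limma adjusted p = 0.0101), and differed by −0.09 in *gun1M* (limma adjusted p = 0.613) and 0.15 in *gun1G* (limma adjusted p = 0.476).

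*LIL3:2*, a paralogue of the chlorophyll synthesis partner *LIL3:1*, stood at 28.3, 28.9 and 33.2 scaled TPM in Col-0 and 20.3, 22.8 and 24.2 in *gun1W*. It stood at 32.8, 31.8 and 28.3 in *gun1M* and 33.4, 31.04 and 31.8 in *gun1G*. Only *gun1W* stood apart, below every other library, and the other 3 groups overlapped. *LIL3:2* fell by 0.41 ± 0.12 on the log2 scale in *gun1W* (limma adjusted p = 0.0301), against 0.04 in *gun1M* (limma adjusted p = 0.837) and 0.09 in *gun1G* (limma adjusted p = 0.688). Both decreases depended on the scaling. With TPM as deposited both genes were higher in *gun1W* than in Col-0, by 0.49 for *OHP2* and 0.60 for *LIL3:2*, less than the median of all gene models (0.82), and with scaling to the nuclear total neither passed (limma adjusted p = 0.313 and 0.560). Leaving out Col-0 1, 2 or 3 (limma adjusted p = 0.0533, 0.0544 and 0.114) or *gun1W* 1 or 2 (limma adjusted p = 0.0835 and 0.0703) also ended the *LIL3:2* call.

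*LIL3:1*, which in Arabidopsis binds geranylgeranyl reductase as LIL3:2 does, stood at 11.2, 18.4 and 13.9 scaled TPM in Col-0 and 16.9, 20.2 and 18.2 in *gun1W*. It stood at 14.5, 17.4 and 21.5 in *gun1M* and 20.0, 17.9 and 17.0 in *gun1G*. All groups overlapped, and Col-0 held the lowest 2 libraries. It was above Col-0 by 0.35 for *gun1W*, 0.29 for *gun1M* and 0.34 for *gun1G*, and none passed (limma adjusted p = 0.183, 0.255 and 0.266). The 95% interval in *gun1W* ran from −0.06 to 0.76.

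The test of *gun1M* against Col-0 also called 2 of the 6 genes, where 29% of all tested gene models passed, but here both were higher. They were *SEP1* and *OHP1*, and 3 of 6 had an unadjusted p under 0.05, against 7781 of the 18373 gene models. *SEP1* stood at 26.5, 34.1 and 38.1 scaled TPM in Col-0 and 80.9, 94.1 and 54.1 in *gun1M*. In *gun1W* it stood at 35.6, 40.8 and 76.3, and in *gun1G* at 60.0, 56.9 and 60.2. *gun1M* and *gun1G* lay above all Col-0 libraries, while *gun1W* overlapped Col-0 and had 1 library far above its other two. *SEP1* rose by 1.17 ± 0.27 on the log2 scale in *gun1M* (limma adjusted p = 0.00891), a call kept in all 24 alternatives. The differences of 0.84 in *gun1G* and 0.55 in *gun1W* did not pass (limma adjusted p = 0.0748 and 0.156), although *gun1G* passed without *gun1W* 3 (limma adjusted p = 0.0293).

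*OHP1*, the partner of OHP2, stood at 9.44, 20.6 and 26.5 scaled TPM in Col-0 and 38.6, 44.7 and 32.1 in *gun1M*. It stood at 22.3, 32.4 and 44.1 in *gun1W* and 46.0, 30.7 and 32.9 in *gun1G*. *gun1M* and *gun1G* lay above Col-0 and *gun1W* overlapped it, and Col-0 1 was far below the other Col-0 libraries. *OHP1* rose by 1.09 ± 0.34 on the log2 scale in *gun1M* (limma adjusted p = 0.0304), and its differences of 1.01 in *gun1G* and 0.83 in *gun1W* did not pass (limma adjusted p = 0.0810 and 0.0847). The *gun1M* call was lost without Col-0 1 (0.68, limma adjusted p = 0.106), *gun1M* 1 (limma adjusted p = 0.0652) or *gun1M* 2 (limma adjusted p = 0.104), and the *gun1W* difference passed without Col-0 3 (limma adjusted p = 0.0435) or *gun1W* 1 (limma adjusted p = 0.0420).

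*SEP2*, the other stress-enhanced protein, had differences from Col-0 of the opposite sign to those of *SEP1* in *gun1M* and *gun1G*. It stood at 8.28, 8.70 and 12.2 scaled TPM in Col-0 and 2.39, 2.96 and 8.93 in *gun1M*. It stood at 21.3, 11.4 and 7.17 in *gun1W* and 1.94, 5.07 and 5.17 in *gun1G*. The *gun1G* libraries lay below all of Col-0 and *gun1W*, 1 library of *gun1M* overlapped Col-0, and *gun1W* spanned the widest range of all. The differences from Col-0 were −1.05 ± 0.45 in *gun1M*, −1.14 ± 0.45 in *gun1G* and 0.31 ± 0.45 in *gun1W*, and none passed (limma adjusted p = 0.0955, 0.128 and 0.640). Without *gun1M* 3 the difference in *gun1M* was −1.53 (limma adjusted p = 0.0182).

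The levels of *SEP1*, *SEP2* and *OHP1* moved with the share of AT3G06365 inside *gun1W* and *gun1M*. In *gun1W* its share was lowest in library 3, where *SEP1* and *OHP1* were highest and *SEP2* lowest. In *gun1M* its share was highest in library 3, where *SEP1* and *OHP1* were lowest and *SEP2* highest. In *gun1G*, where the share was 0.219, 1.34 and 4.70%, *OHP1* was highest and *SEP2* lowest in library 1, of the lowest share, and *SEP1* was highest in library 3, of the highest share. In Col-0 the share was 5.71, 8.46 and 8.42%. There *SEP1*, *OHP1* and *SEP2* were all lowest in library 1, of the lowest share, which for *SEP1* and *OHP1* is opposite to *gun1W* and *gun1M*. With that share as a covariate, *SEP1* differed from Col-0 by 0.88 in *gun1W* (limma adjusted p = 0.00567) and 0.96 in *gun1M*, and *OHP1* by 1.05 in *gun1W* (limma adjusted p = 0.0385) and 0.95 in *gun1M* (limma adjusted p = 0.0548). *SEP2* then differed by −0.28 in *gun1W*, −0.67 in *gun1M* and −0.54 in *gun1G*. *LIL3:2* in *gun1W* was at −0.34 (limma adjusted p = 0.0517) and *OHP2* at −0.49.

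In *gun1G* none of the 6 genes passed in limma, where 9.38% of all tested gene models did. An unadjusted p under 0.05 was reached by 4899 of the 18373 gene models and by 3 of the 6 genes (*SEP1*, *SEP2* and *OHP1*). For these 3 genes the libraries of the green seedlings lay outside the range of Col-0, *SEP1* and *OHP1* above it and *SEP2* below it. How many of all tested gene models lay apart in this way was not counted, so this only describes the libraries.

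**Figure D2:**
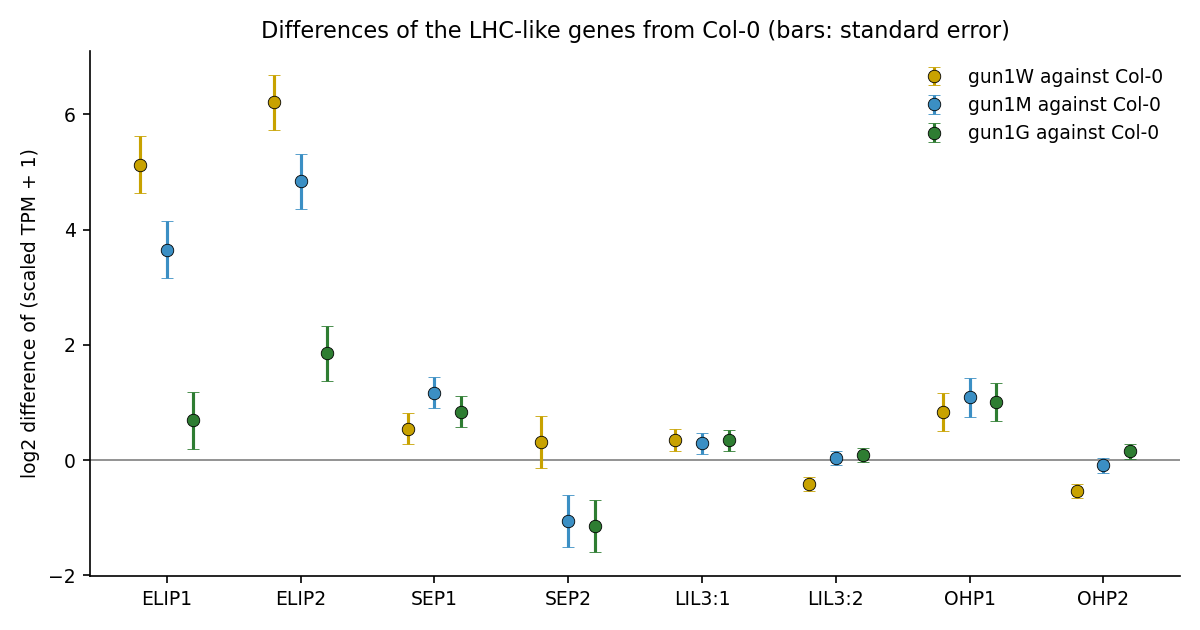
Difference of each gene from Col-0 on the log2 scale of scaled TPM + 1 (vertical axis) in *gun1W*, *gun1M* and *gun1G*; bars are standard errors of the fit over 12 libraries. The *ELIP* genes stood between 0.69 and 6.21 above Col-0, while the other 6 lay between −1.14 (*SEP2*, *gun1G*) and 1.17 (*SEP1*, *gun1M*).

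The *gun1* groups, which share the insertion, were also compared with each other. Between *gun1W* and *gun1G* 2 of the 6 genes passed, against 13.1% of all tested gene models, and they were again *OHP2* and *LIL3:2*. *OHP2* differed by −0.69 ± 0.13 (limma adjusted p = 0.00530) and *LIL3:2* by −0.50 ± 0.12 (limma adjusted p = 0.0222), lower in *gun1W* in 3 of 3 libraries. *SEP2* was higher in *gun1W* than in *gun1G* by 1.45 without overlap and just failed (limma adjusted p = 0.0531). Leaving out *gun1W* 1 or 2, or any *gun1G* library, ended the *LIL3:2* call (limma adjusted p = 0.0575 to 0.0663). Scaling to the nuclear total ended both calls (limma adjusted p = 0.0540 for *OHP2* and 0.146 for *LIL3:2*), and TPM as deposited turned both positive, at 0.29 and 0.47. Between *gun1M* and *gun1G* no gene of the 6 passed or had an unadjusted p under 0.05. Of all 18373 gene models 4.16% passed and 3994 had an unadjusted p under 0.05. The closest of the 6 was *OHP2* at −0.24 (limma adjusted p = 0.294). Between *gun1W* and *gun1M* 0 of 6 passed in limma, where 0.185% of all tested gene models passed. An unadjusted p under 0.05 was reached by 4 of 6 (*SEP1*, *SEP2*, *LIL3:2* and *OHP2*) and by 1975 of the 18373 gene models.

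Sorted by the number of helices, the 3-helix genes had a median difference from Col-0 of 5.67 for *gun1W*, 4.24 for *gun1M* and 1.27 for *gun1G* (log2). The 4 2-helix genes had medians of 0.33, 0.17 and 0.22, and the 2 1-helix genes 0.15, 0.50 and 0.58, with the median of all tested gene models at 0.00, −0.01 and 0.00. Class medians hid differences of opposite sign. These were of *OHP1* and *OHP2* in *gun1W* and *gun1M*, of *SEP1* and *SEP2* in *gun1M* and *gun1G*, and of *LIL3:1* (0.35) and *LIL3:2* (−0.41) in *gun1W*. By scaled TPM, which is per length, *OHP2* was the most abundant of the 8 in Col-0 (56.7 ± 4.48, SD, n = 3) and *gun1G* (63.3 ± 8.06), *ELIP2* in *gun1W* (93.1 ± 46.1) and *SEP1* in *gun1M* (76.4 ± 20.4). *SEP1* and *OHP2* overlapped in *gun1G* and did not overlap in Col-0 or *gun1M*. In *gun1W* the range of *ELIP2* overlapped those of *ELIP1*, *SEP1*, *OHP1* and *OHP2*.

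Shares of the summed TPM of the 8 genes do not depend on the scaling. The 3-helix share was 0.635, 0.547 and 0.206% in the Col-0 libraries against 30.6, 53.3 and 48.7% in *gun1W*. For *gun1M* it was 8.44, 24.1 and 28.0%, and for *gun1G* 1.93, 2.07 and 2.53%. The 2-helix share had a mean of 53.2 ± 2.15% for Col-0, 33.3 ± 7.91% for *gun1W*, 46.8 ± 6.78% for *gun1M* and 52.2 ± 3.29% for *gun1G* (SD, n = 3). The 1-helix share was 46.3 ± 1.96, 22.5 ± 4.105, 33.0 ± 3.80 and 45.6 ± 3.57% in the same order. As the *ELIP* genes make these shares fall, the 2-helix share was also taken among the other 6 genes. Col-0 then ranged from 51.2 to 55.2%, *gun1W* from 57.9 to 60.8%, *gun1M* from 56.8 to 59.8% and *gun1G* from 49.5 to 56.4%. *gun1W* and *gun1M* thus lay above all Col-0 and *gun1G* libraries, by 5.97 and 5.12 percentage points over Col-0. Two-sided exact permutation tests gave p = 0.1 for each, the smallest that 3 libraries against 3 allow, and adjusted p = 0.218 over the 24 tests of shares and ratios.

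**Figure D3:**
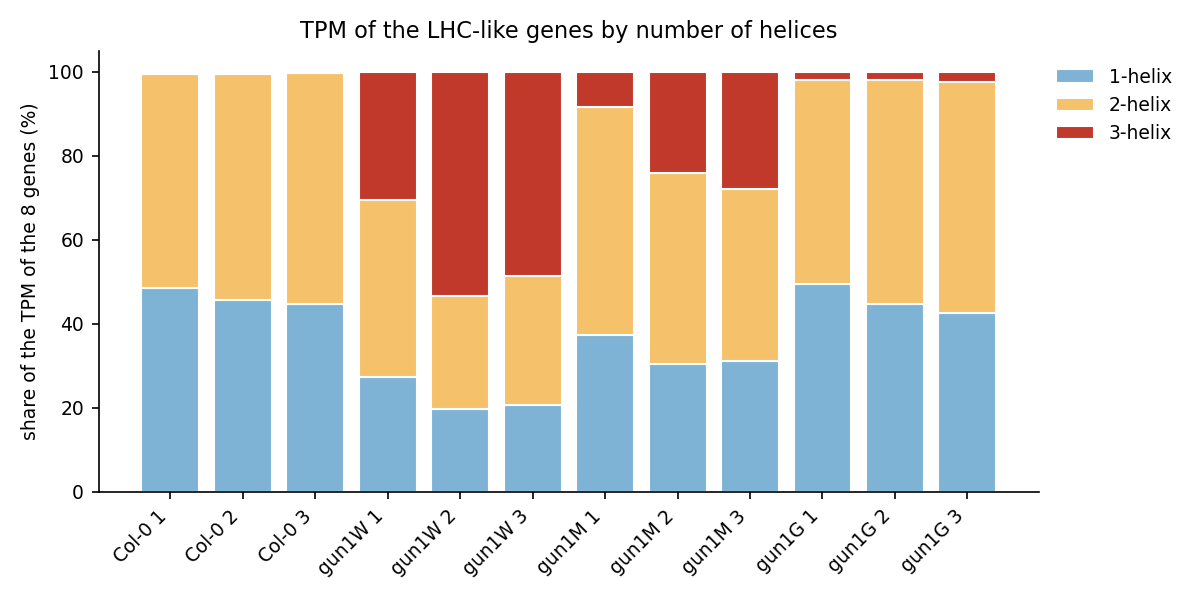
Share of the summed TPM of the 8 genes (vertical axis, percent, from 0) held by the 1-helix, 2-helix and 3-helix genes in each of the 12 libraries. The 3-helix share ran from 30.6 to 53.3% in *gun1W* and stayed under 1% in Col-0.

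Ratios within a pair are likewise free of the scaling. The proteins OHP1 and OHP2 work as a pair, and the ratio of *OHP1* to *OHP2* was 0.154, 0.366 and 0.505 in the Col-0 libraries and 0.579, 0.883 and 1.07 in *gun1W*. For *gun1M* it was 0.750, 0.832 and 0.595, and for *gun1G* 0.642, 0.489 and 0.592. It lay above all Col-0 libraries in *gun1W* (2.68-fold) and *gun1M* (2.35-fold), and overlapped Col-0 in *gun1G* (1.87-fold). The exact permutation p was 0.1, 0.1 and 0.2, and the adjusted values were 0.218, 0.218 and 0.32. The ratio of *LIL3:1* to *LIL3:2* was 0.395, 0.635 and 0.418 in Col-0 and 0.832, 0.886 and 0.752 in *gun1W*, a 1.74-fold difference without overlap (exact permutation p = 0.1, adjusted 0.218). *gun1M* (0.442 to 0.762) and *gun1G* (0.532 to 0.599) overlapped Col-0. The ratio of *SEP1* to *SEP2* was 3.20, 3.93 and 3.13 in Col-0, 33.9, 31.8 and 6.06 in *gun1M* and 30.9, 11.2 and 11.7 in *gun1G*. Both groups lay above Col-0, by 5.50-fold and 4.69-fold (exact permutation p = 0.1, adjusted 0.218). In *gun1W* it was 1.67, 3.57 and 10.6, which spanned the Col-0 values.

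**Figure D4:**
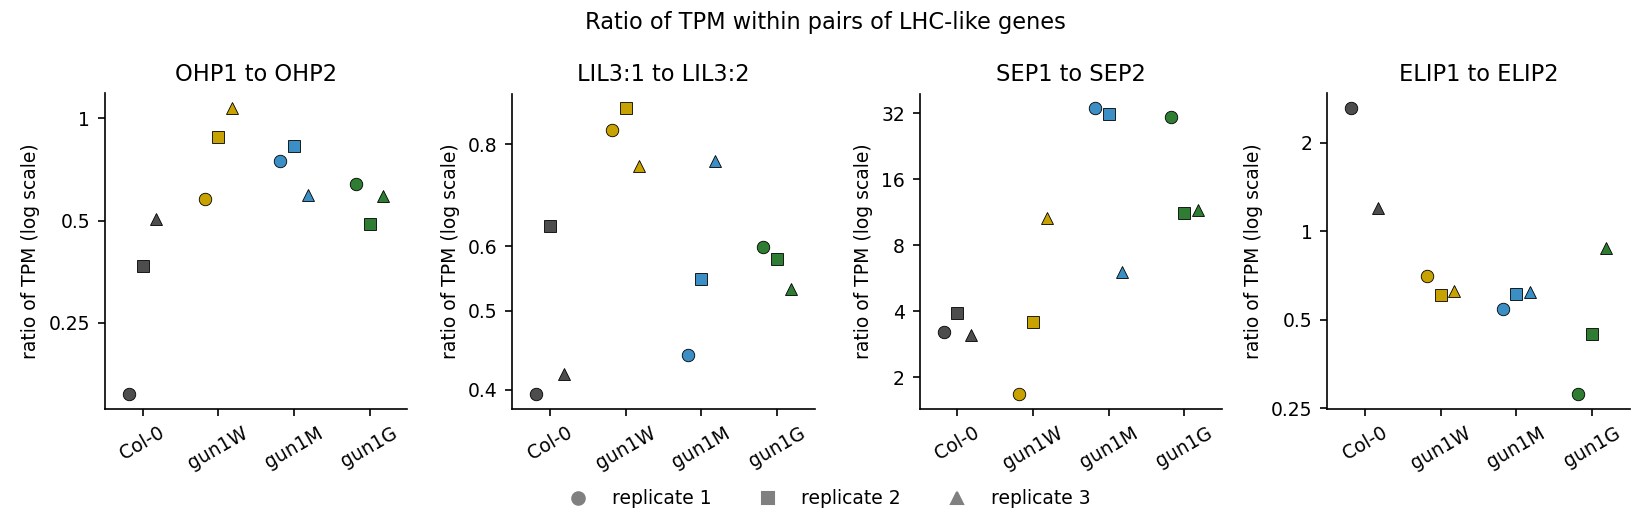
Ratio of TPM within each pair of genes (vertical axes, log scale) by group; points are libraries, with the replicate as the symbol, and the undefined *ELIP* ratio of Col-0 2 is left out. The *LIL3:1* to *LIL3:2* ratio was 0.752 to 0.886 in *gun1W* and 0.395 to 0.635 in Col-0.

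The leading transcript held over 87% of the TPM of *SEP1*, *SEP2*, *LIL3:1*, *LIL3:2* and *OHP2* in every library. For *ELIP2* it held 88.8 to 99.7% in *gun1W* and *gun1M*, and for *ELIP1* 70.5 to 97.1%. In *gun1G*, where *ELIP1* was low, its leading transcript held 0 and 100% in libraries 2 and 3, and another *ELIP1* transcript held 80.3% in library 2. Among the 6 tested genes *OHP1* varied most, with its leading transcript at 68.8 to 87.3% in Col-0 and 38.6 to 88.4% in *gun1W*, the low value being that of *gun1W* 1, where a second *OHP1* transcript held 46.9%. The 36 exact permutation tests of these shares in the 6 tested genes gave a lowest p of 0.1, the smallest they allow, and a lowest adjusted p of 0.6. *OHP1*, *SEP2*, *LIL3:1* and *OHP2* overlap a gene on the opposite strand. The libraries kept strand, but the strand setting of the counting is not given in the sources used here. A joined model of *SEP1* and its neighbour stayed at or under 1.90 TPM, and adding it changed no call of *SEP1*.

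Over the 12 libraries the log2 levels of *ELIP1* and *ELIP2* had a Pearson r of 0.98, those of *SEP1* and *OHP1* 0.87 and those of *LIL3:2* and *OHP2* 0.82. *SEP1* and *SEP2* had −0.71, and *ELIP1* and *OHP2* −0.78. These points share 4 groups and the scaling, and are given as a description. By the same measure, out of 11357 nuclear gene models that averaged 5 TPM or more in some group, those most like *ELIP2* were *TIL* (0.99), a lipocalin, *GolS1* (0.98), which makes galactinol, AT3G57880 (0.98), *AO* (0.98), which encodes L-aspartate oxidase, and *Hsp70-2* (0.98). *TIL*, for example, stood at 46.0 to 52.4 scaled TPM for Col-0, 248 to 322 for *gun1W*, 133 to 272 for *gun1M* and 71.7 to 84.2 for *gun1G*. It was picked for its likeness to *ELIP2*, so the same order of groups is no separate result. Those most like *SEP1* were AT1G16080 (0.98), *GAPA-2* (0.96), a Calvin cycle enzyme subunit, AT3G59780 (0.96), AT1G29700 (0.95) and *HPT1* (0.95), an enzyme of tocopherol synthesis. AT1G16080 (0.91) was also second for *OHP1*, after AT3G57062 (0.93) and before *TRANS11* (0.91), AT1G04200 (0.90) and AT2G01690 (0.90). For *LIL3:1* likeness was weaker, with AT3G46450 (0.89), AT4G23740 (0.86), AT1G75280 (0.86), *NF-YC2* (0.85) and AT5G11230 (0.84).

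Lists of related genes, chosen like the members with earlier results of these data known, were read against the share of all tested gene models that passed in each direction. That share was 15.1% higher and 12.5% lower in *gun1W*, 15.4% higher and 13.6% lower in *gun1M*, and 5.75% higher and 3.62% lower in *gun1G*. The LHC proteins proper, the antenna relatives of these genes, mostly fell in *gun1W*, where the *ELIP* genes were highest. Of 21, 14 fell, 4 rose and 3 did not pass in *gun1W*, with a median of −0.78. *LHCB1.2* and *LHCB1.5*, of the main antenna of photosystem II, differed by −1.54 and −1.26, and *LHCA4*, of the photosystem I antenna, by −1.43. The 4 that rose were *LHCA5*, *LHCA6*, *LHCB4.3* and *LHCB7*, named here after their values were seen, like every gene beyond the first 3 of a list below. *LHCB7* stood at 0.490 to 1.02 scaled TPM for Col-0 and 0.797 to 1.70 for *gun1G*. It came through the filter on low values only by *gun1W* and *gun1M*, so its calls in these groups are a description. *LHCB1.2* stood at 1289 to 1582 scaled TPM for Col-0, 447 to 571 for *gun1W*, 686 to 990.1 for *gun1M* and 1157 to 1376 for *gun1G*. By group means this was the reverse order to *ELIP2*, but Col-0 and *gun1G* overlapped. Not all 21 had this order. *LHCB3*, for example, had means of 1270 for Col-0, 963 for *gun1W*, 1869 for *gun1M* and 1978 for *gun1G*. In *gun1M* 4 fell (*LHCB1.2*, *LHCA4*, *LHCB1.5* and *LHCA1*) and the same 4 rose, and in *gun1G* only *LHCA5* rose, with medians of −0.15 and 0.06. Unscaled TPM turned this, with 7 that rose, 1 that fell and a median of 0.26 in *gun1W*, and 5 that rose and 2 that fell in *gun1M*, while with the nuclear total 4 rose and 8 fell in *gun1W*. Of the 2 other genes for proteins with an LHC-type helix, *PSBS*, the sensor of energy-dependent quenching, rose in all 3 groups (0.72, 1.11 and 0.99 in *gun1W*, *gun1M* and *gun1G*) and *FC2*, a ferrochelatase, passed in none (0.40, 0.31 and 0.29).

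Of 12 genes for partners of OHP1, OHP2 and LIL3 and for neighbouring steps of chlorophyll synthesis, 11 were tested. In *gun1W* 1 rose, 2 fell and 8 did not pass, with a median of −0.17, and 3 of 11 is close to the 27.7% of all tested gene models. *PORB*, a light-dependent protochlorophyllide oxidoreductase, differed by −1.90, *CHLP*, the geranylgeranyl reductase that LIL3 binds, by −0.76, and *CHLG*, chlorophyll synthase, by 0.68. In *gun1M* *PORB* and *CHLP* fell again, by 1.65 and 0.54, and *CHLG*, *HCF173*, *HCF244* and *PORC* rose. *HCF244*, which acts with OHP1 and OHP2, rose by 0.65 in *gun1M* and 0.63 in *gun1G* and was at 0.23 in *gun1W* (limma adjusted p = 0.294). In *gun1G* *CHLG*, *HCF244* and *PORC* rose and none fell. From TPM as deposited, 8 rose and 1 fell in *gun1W* with a median of 0.86, and with the nuclear total 2 rose and 2 fell. Of the 4 genes for insertion of LHC-type proteins into thylakoids, *ALB3*, the insertase, fell in *gun1W* (−0.56) and *CAO*, here the signal recognition particle subunit cpSRP43, in *gun1M* (−1.36), and none of *CAO* (−0.71), *FTSY* (−0.18) and *CPSRP54* (−0.18) passed in *gun1W*. The 1 of 4 called in *gun1W* and in *gun1M* is close to the 27.7 and 29% of all tested gene models. In unscaled TPM 2 of the 4 rose and none fell in *gun1W*.

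Of 12 photoprotection genes 3 rose, 2 fell and 7 did not pass in *gun1W* (median 0.06). *BCH1*, a carotenoid hydroxylase, differed by 1.56, *LUT2*, the lycopene epsilon-cyclase, by 0.54 and *PGRL1B*, of cyclic electron flow, by −0.61. The third that rose was *STN8* and the other that fell *STN7*. In *gun1M* 6 rose and none fell (0.48), and in *gun1G* *LUT2*, *PGRL1A* and *SOQ1* rose and none fell (0.36). Unscaled, 10 rose and none fell in *gun1W*, where the median was 1.05. Of 12 genes of light signalling known to act on *ELIP* genes or beside them, 3 rose and 2 fell in *gun1W* (0.11). *HYH*, a bZIP factor related to HY5, rose by 2.75 in *gun1W*, 2.78 in *gun1M* and 1.58 in *gun1G*, while *RUP2*, a repressor of the UV-B receptor, rose by 2.48 and 1.46 and was at 0.04 in *gun1G*. *BBX21*, an activator of photomorphogenesis, differed by −1.07, −1.30 and −0.70, the last without passing. *HY5* rose in *gun1W* (1.13, limma adjusted p = 0.0256) and *CRY1* fell in all 3 groups. In *gun1M* *BBX22* rose and *UVR8* fell too, and in *gun1G* *GLK1* rose. Unscaled, 9 rose and none fell in *gun1W*.

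Of 12 genes of excess light and heat stress, a list also chosen with earlier results known, 11 rose and none fell in *gun1W* (median 2.86) and in *gun1M* (2.46), and in *gun1G* 5 rose and none fell (0.92). Of all tested gene models 15.1, 15.4 and 5.75% were called higher in these groups. *FER1*, a ferritin, was the one that did not pass, at 0.40 in *gun1W* and −0.73 in *gun1M*. *APX2*, *HSP21* and *HSFA2* stayed under 1 scaled TPM in every Col-0 and *gun1G* library. *HSP101* stood at 0.345 to 0.720 for Col-0 and 0.629 to 1.24 for *gun1G*. These genes came through the filter on low values only by *gun1W* and *gun1M*. Their calls in these groups, which the counts of 11 include, are a description and no test of a rise. *HSP21*, a plastid small heat shock protein, stood at 0 to 0.0609 scaled TPM for Col-0, 14.2 to 28.3 for *gun1W*, 20.1 to 34.0 for *gun1M* and 0.0603 to 0.124 for *gun1G*. *GOLS1*, for galactinol synthesis, stood at 3.003 to 5.77, 73.9 to 139, 46.4 to 111 and 8.16 to 9.67 in the same order. Both were high in *gun1W* and *gun1M*, as the *ELIP* genes were. *GOLS1* is the same gene as the *GolS1* given above among those most like *ELIP2*, so its likeness here is no separate result. *STZ*, a zinc finger factor of stress responses, stood at 0.534 to 0.929 for Col-0 but at 27.3 to 37.1 for *gun1W*, 23.9 to 43.3 for *gun1M* and 22.1 to 32.1 for *gun1G*, so that it was high in green seedlings too. The 5 that rose in *gun1G* were *STZ*, *ZAT12*, *BAP1*, *OXI1* and *TT4*. Counted on unscaled TPM, 12, 11 and 4 rose in *gun1W*, *gun1M* and *gun1G*, and with the nuclear total 11, 11 and 5.

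**Figure D5:**
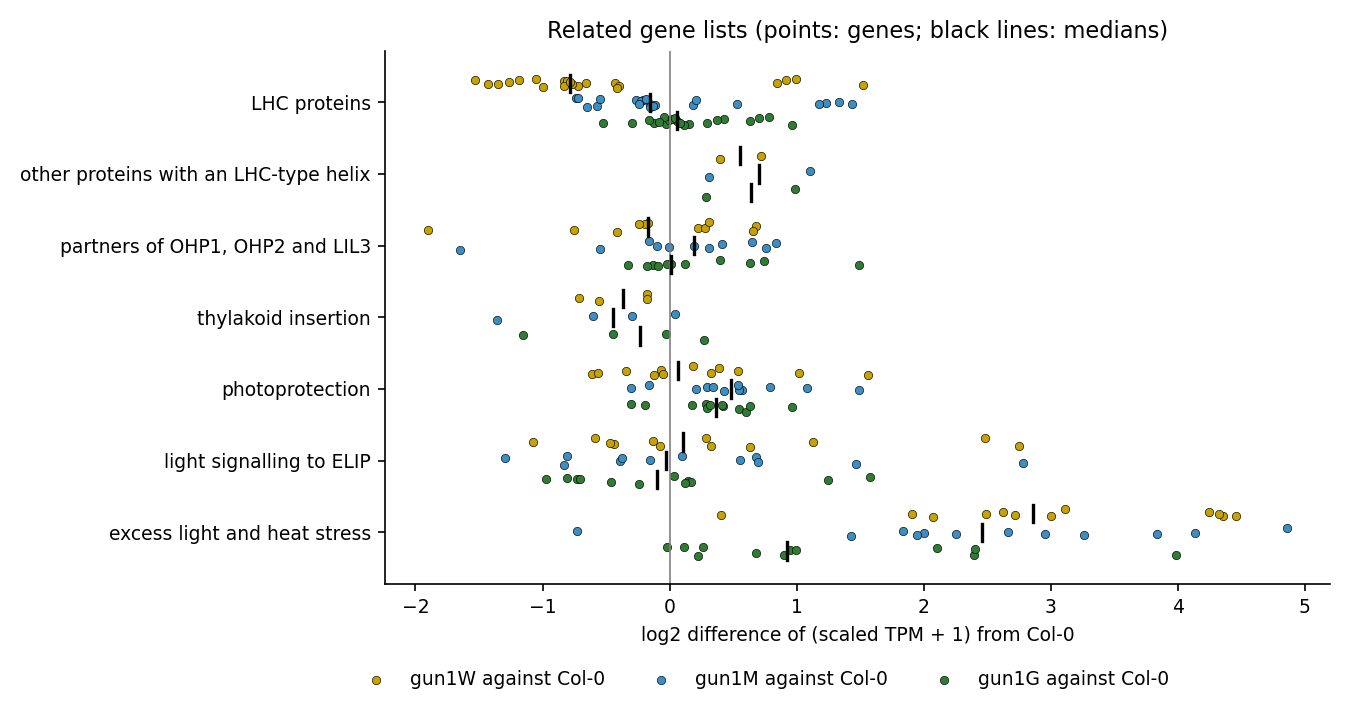
Difference from Col-0 on the log2 scale of scaled TPM + 1 (horizontal axis) of the tested genes of 7 related lists in *gun1W*, *gun1M* and *gun1G*; points are genes, spread vertically for view, and black lines are medians. Excess light and heat stress genes had medians of 2.86, 2.46 and 0.92, and LHC proteins −0.78, −0.15 and 0.06.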

How the data were processed

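RNA of 4-day-old Col-0, *gun1W*, *gun1M* and *gun1G* was measured in 12 rRNA-depleted, strand-keeping libraries. The authors deposited TPM per transcript, estimated with Salmon against the AtRTD3 transcriptome; the deposited notes also name Trimmomatic, FastQC, STAR and TAIR10 and give no versions. A second deposited table of plastid transcripts was not used here. TPM sums to 1000000 in every library, so depth and counting error are unknown and no count test was run.

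TPM was summed over the 168507 transcripts into 40215 gene models, and non-plastid models that reached 1 TPM in 3 or more libraries were tested (18373: 17675 nuclear, 83 mitochondrial, 402 joined models, 213 without a name in the reference). Each library was scaled by the median log2 ratio over 12490 nuclear genes. The log2 of scaled TPM + 1 was fitted in limma 3.58.1 (R 4.3.3) with a trend, all 12 libraries and the group as the only term, where the study called genes also at 2-fold. "Passed", "rose" and "fell" mean a Benjamini-Hochberg adjusted p under 0.05 over all tested models, and errors are standard errors of the fit unless named SD. Shares and ratios were compared with two-sided exact permutation tests in scipy 1.17.1. The fit was tested on simulated data.

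The members and lists were chosen with earlier results of these data known. Named were all 8 members, up to 3 genes a list by the lowest adjusted p of *gun1W* against Col-0, and the 5 gene models most like *ELIP2*, *SEP1*, *LIL3:1* and *OHP1*. Marker sums cover mesophyll, root, shoot meristem, stomatal lineage and seed. Windows of 250 bases before gene starts and gene positions are from the RefSeq annotation of TAIR10.1, and coding sequences were aligned with Biopython 1.88; the files hold no coordinates. Alternatives were the value added before the log, the filter, the scaling, the trend, the replicate block, the share of AT3G06365 as covariate, 2 groups in the fit, joined models and each library left out.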

Additional observations from a re-analysis of the deposited data

Results flagged for a closer look

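*OHP2* and *LIL3:2* had differences from Col-0 that differed between *gun1W* and *gun1G* by the test of the difference itself. For *OHP2* the difference was −0.69 on the log2 scale (limma adjusted p = 0.00530) and for *LIL3:2* it was −0.50 (limma adjusted p = 0.0222), lower in *gun1W* in 3 of 3 libraries for both. With TPM as deposited they were 0.29 and 0.47, below the median of all gene models, which was then higher in *gun1W* than in *gun1G* by 0.80.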

How the results depend on the processing

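Over 24 alternatives, *SEP1* in *gun1M* passed in all 24, *OHP1* in *gun1M* in 18, *OHP2* in *gun1W* in 23 and *LIL3:2* in *gun1W* in 15, with the opposite sign in 1 alternative for each of the last 2 genes. With TPM as deposited, the differences of *LIL3:2* and *OHP2* turned positive, at 0.60 and 0.49 in *gun1W* against Col-0 and 0.47 and 0.29 in *gun1W* against *gun1G*. The members that passed were then 6 in *gun1W* against Col-0 and 2 in *gun1W* against *gun1M*, and the calls over all gene models were 12406 in *gun1W*, 904 in *gun1G*, 12338 in *gun1W* against *gun1G* and 10065 in *gun1W* against *gun1M*, against 5081, 1723, 2402 and 34. The share of calls that were higher in *gun1W*, *gun1M* and *gun1G* was 54.8, 53.0 and 61.3% as reported, 97.5, 77.9 and 67.4% with TPM as deposited, 75.1, 69.5 and 83.7% with the nuclear total and 47.5, 47.7 and 56.9% with quantile normalization. With the nuclear total, the median of all gene models was 0.19, 0.17 and 0.17, the members that passed were 0 in *gun1W* and 1 in *gun1W* against *gun1G*, and calls were 477 in *gun1M* against *gun1G* (764 as reported) and 15 in *gun1W* against *gun1M*.

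With the share of AT3G06365 as covariate, 1 member passed in *gun1M* and 1 in *gun1W* against *gun1G*, and calls were 938 in *gun1G*, 1577 in *gun1M* against *gun1G* and 11 in *gun1W* against *gun1M*. With 2 groups in the fit, 1 member passed in each of *gun1W*, *gun1M*, *gun1G* and *gun1W* against *gun1G*, and calls were 126 in *gun1M* against *gun1G* and 0 in *gun1W* against *gun1M* (limma). Without the filter 1 member passed in *gun1M*, and with 5 added there were 22 calls in *gun1W* against *gun1M*.

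The replicate numbers did not pair the libraries, since the correlations of deviations over 18 pairs with the same number ran from −0.29 to 0.31, 4 of them above 0.1, and 4 of 12 libraries were closest to their own number. With the replicate block 1 member passed in *gun1W*, where *LIL3:2* had a limma adjusted p of 0.0531, and calls in *gun1W* against *gun1M* were 13. It changed no other call of a member.

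Leaving out 1 library in turn gave 3210 to 5351 calls in *gun1W*, 3115 to 5801 in *gun1M*, 466 to 1966 in *gun1G*, 1313 to 2660 in *gun1W* against *gun1G*, 209 to 921 in *gun1M* against *gun1G* and 8 to 57 in *gun1W* against *gun1M*. The members that passed were then 1 to 2, 1 to 3, 0 to 1 and 1 to 3 in the first 4 of these comparisons. The lowest counts came without Col-0 3, *gun1M* 2, Col-0 1, *gun1W* 2, *gun1G* 2 and *gun1M* 2. Counts also moved by over 1.5 times without *gun1W* 3 in *gun1W*, without Col-0 3 in *gun1M*, without Col-0 2 or 3 or *gun1G* 1 or 3 in *gun1G*, without *gun1G* 2 or 3 in *gun1W* against *gun1G*, without *gun1M* 2 or *gun1G* 3 in *gun1M* against *gun1G*, and without every library except *gun1G* 1 in *gun1W* against *gun1M*. The cause of these shifts was not tested. With 3 libraries a group, the exact tests cannot go below 0.1.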
